A study of Mus musculus with 6 samples.

Results

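The genes described here are 10 that sit at the nuclear end of canonical Wnt signalling or feed back on it. Their probes were found by gene symbol through the RefSeq transcript that the array design gives each probe. They are the 10 genes Axin2, Tnfrsf19, Nkd1, Nkd2, Znrf3, Rnf43, Lgr5, Lef1, Tcf7 and Tcf7l2, out of 20659 named genes with a probe, and 17 probes measured them. RNA came from MC3T3-E1 cells, a clonal line of mouse pre-osteoblasts from the skull vault, after 3 days on a metal scaffold. The De-HA group (n = 3) grew on a scaffold that had been dealloyed, which leaches metal out of an alloy, and then coated with a bioactive material. The FeMnSi group (n = 3) grew on the original scaffold of iron, manganese and silicon. De-HA differs from FeMnSi by both steps together, so dealloying and coating cannot be told apart. The series asks which expression changes accompany bone-forming and blood vessel-forming differentiation on such scaffolds. Nothing in the labels says that samples of a group came from different cultures. The p-values below therefore reflect the scatter of these samples alone, and this scatter may be technical.

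In canonical Wnt signalling a secreted Wnt protein binds a Frizzled receptor and the coreceptor Lrp5 or Lrp6, and this stops a cytosolic complex built on Axin from destroying beta-catenin. Beta-catenin then enters the nucleus and switches on genes through the DNA-binding proteins Lef1, Tcf7 and Tcf7l2. Some of the genes it switches on, Axin2 first among them, are brakes on the pathway itself, so their level is often read as a sign of how strongly a cell responds, and in bone the pathway is known to favour the formation of osteoblasts.

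Each sample was hybridised to 1 single-colour array, and no spot was saturated. Values are log2 processed signals minus the 75th percentile of the array, so 0 is the level of a bright probe, and a value is compared between arrays only within a probe. A probe was tested when 3 or more of the 6 arrays showed it well above background, and a difference passed when its limma p-value, adjusted by Benjamini-Hochberg over all 28175 probes tested, was under 0.05. On De-HA 1, 63.5% of probes were well above background, and on the other arrays between 69.2% and 74.4%. De-HA 1, 2 and 3 shared a scan date with FeMnSi 1, while FeMnSi 2 and 3 shared another. Arrays with the same scan date are called a slide here, and no slide number was used. The De-HA mean minus FeMnSi 1 therefore gives a value within slide 1. All 9 osteoblast markers were tested and well above background on every array. Their summed level was 210 to 249 times the 75th percentile in De-HA and 179 to 208 in FeMnSi. Most of that sum came from Col1a2 and Col1a1 (De-HA means 7.03 and 6.12), and neither passed. Of the 9 markers 4 rose (Runx2, Sp7, Alpl, Ibsp) and 1 fell (Spp1). Ibsp rose by 0.79 on the log2 scale on its brightest probe and by 0.17 on its other tested probe. Of 5 smooth muscle markers 4 were tested and all 4 rose, with a summed level of 67.4 to 69.1 in De-HA and 23.3 to 24.8 in FeMnSi, and Myh11 was well above background on 1 array. Of 5 chondrocyte markers 3 were tested and Col2a1 rose, with sums of 21.6 to 22.4 in De-HA and 14.9 to 15.5 in FeMnSi. Acan was well above background on all 6 arrays but was left out for outlier spots, and Comp was well above background on 2 arrays. Of 9 myeloid markers 7 were tested, Adgre1 rose and Trem2 fell, with sums of 4.12 to 4.58 in De-HA and 3.26 to 4.53 in FeMnSi, Tyrobp was well above background on no array, and Cd68 had no probe matched here. Of 6 adipocyte markers 5 were tested and Fabp4 fell, with sums of 0.24 to 0.27 in De-HA and 0.31 to 0.36 in FeMnSi, and Adipoq was well above background on no array. Of 4 endothelial markers 2 were tested and Kdr rose, with sums of 0.80 to 0.89 in De-HA and 0.63 to 0.65 in FeMnSi, while Cdh5 and Tek were well above background on no array. Of all named genes 4.47% rose and 3.18% fell by this test. With slide as a block Acta2, Tagln, Myl9, Col2a1, Trem2 and Fabp4 still passed, while no osteoblast marker did, nor did Cnn1, Adgre1 or Kdr. The part of these markers in the results on Wnt genes was not tested. In a bulk sample, a change in the number of cells of a type and a change in RNA per cell cannot be told apart.

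Axin2, Tnfrsf19 and Rnf43, all of them feedback genes or reported targets of the pathway, were higher in De-HA than in FeMnSi on 1 probe each, by 1.93, 1.55 and 1.55 times. Axin2 and Tnfrsf19 each have another, dimmer probe that did not pass (1.59 times, adjusted p = 0.347, and 1.15 times, adjusted p = 0.480). None of the DNA-binding effectors passed the test on any of their 5 tested probes. In all, 13 of the 17 probes could be tested, and they covered 9 of the 10 genes. Of these 13 probes 3 passed, all higher in De-HA, which is 23.1% against 6.91% of all probes tested (4.34% higher and 2.57% lower). By gene, 3 of 9 had a probe that passed (33.3%), against 7.65% of all named genes taken by their brightest probe. The 10 genes were chosen with earlier results of these data known, so these shares are descriptions. No probe of these genes passed in the lower direction in the limma fit, and all 6 with an unadjusted p under 0.05 were higher. Those 6 are 46.2% of the 13, against 31.8% of all probes at that limit (22.8% higher). After quantile normalization 4 of the 13 were under that limit in limma (30.8%, against 27.8% of all probes). The shares were the same with arrays centred on their median and in the authors' series matrix. After normexp background correction they were 53.8% and 36.8%. With 1 array left out they ran from 23.1% to 61.5%, against 21.3% to 44.1% of all probes. The median log2 fold change of the 13 probes was 0.39, and that of all probes tested was 0.12. After quantile normalization these medians were 0.25 and 0.01, and with slide as a block 0.17 and 0.07. The 3 fold changes that passed were 0.93, 0.58 and 0.62 on the log2 scale after quantile normalization. Of all probes that passed, 62.8% were higher in De-HA, against 44.4% after quantile normalization, 39.4% with arrays centred on their median, 41.7% in the authors' series matrix and 73.2% after normexp background correction. The count of 3, like that over all probes, depends on single arrays: leaving out De-HA 1 or De-HA 2 gave 1, leaving out De-HA 3 gave 0, leaving out FeMnSi 1 gave 6, leaving out FeMnSi 2 gave 1 and leaving out FeMnSi 3 gave 0. Of all probes 25.4% passed without FeMnSi 1, and 0.490% to 1.22% without any other single array. Without FeMnSi 1 the groups shared no slide, so group and slide cannot be told apart there. With slide as a block none of the 13 passed, where 0.561% of all probes did. In that fit 3 of the 13 had an unadjusted p under 0.05 (23.1%, against 17.4% of all probes).

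**Figure D1:**
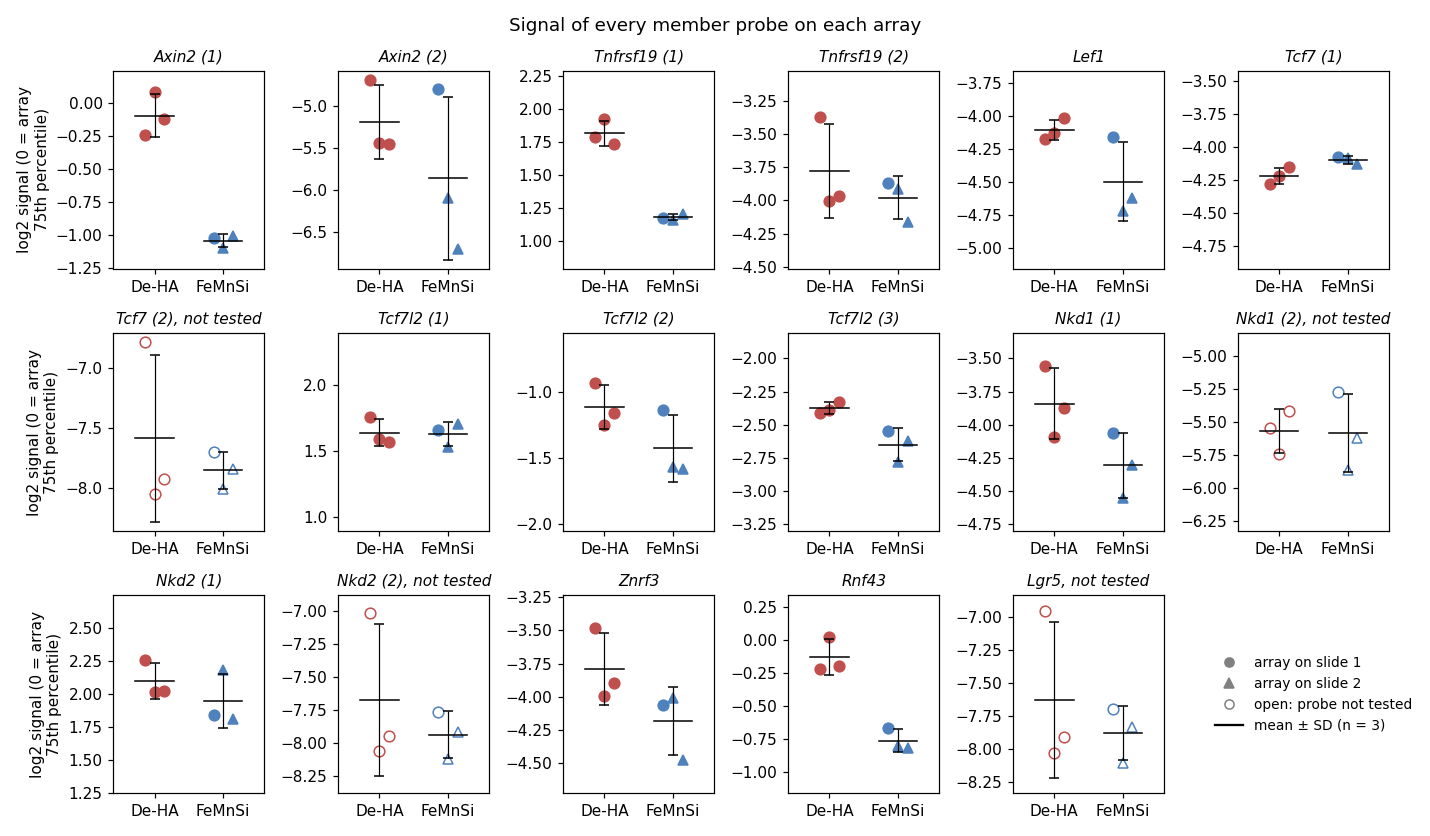
Signal of each of the 17 probes on each array, as log2 of the processed signal relative to the 75th percentile of that array, with De-HA left of FeMnSi in every panel. Circles are arrays of slide 1 and triangles arrays of slide 2, open symbols mark the 4 probes not tested, and lines give mean ± SD (n = 3). Probes of a gene are numbered from the brightest, and the panels for Axin2 (1), Tnfrsf19 (1) and Rnf43 show the De-HA arrays well clear of the FeMnSi arrays.

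Axin2 is a scaffold of the complex that destroys beta-catenin and a standard transcriptional target of the pathway, and it has 2 probes, numbered here from the brighter. The processed signal of Axin2 probe 1 (A_55_P2000783) was 526, 691 and 535 in De-HA, against 322, 337 and 351 in FeMnSi. On the scaled log2 axis these are -0.25, 0.08 and -0.12 in De-HA and -1.02, -1.09 and -1.01 in FeMnSi. The groups did not overlap, and the gap between them was wider than the range of either. The means were -0.10 ± 0.16 in De-HA and -1.04 ± 0.05 in FeMnSi (SD, n = 3 each), a log2 fold change of 0.95 ± 0.11 (SE), 95% confidence interval 0.68 to 1.21, adjusted p = 0.0110. Within slide 1 the value was 0.93, with adjusted p = 0.0751 when slide was a block.

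Axin2 probe 2 (A_66_P134405) lay near the detection limit and was well above background on 2 De-HA arrays and 1 FeMnSi array. Its log2 signal was -4.69, -5.44 and -5.45 in De-HA, against -4.79, -6.09 and -6.70 in FeMnSi. The groups overlapped, because FeMnSi 1 was higher than De-HA 2 and 3. The log2 fold change was 0.67 ± 0.48 (SE) with an interval of -0.45 to 1.80 and adjusted p = 0.347, and within slide 1 it was -0.40. Both Axin2 probes carry the same RefSeq transcript.

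Tnfrsf19, also called Troy, is a receptor of the tumour necrosis factor receptor family that has been reported as a target of beta-catenin. Tnfrsf19 probe 1 (A_55_P2012439) had log2 signals of 1.79, 1.92 and 1.74 in De-HA, against 1.17, 1.16 and 1.20 in FeMnSi. Every De-HA array was above every FeMnSi array, and the FeMnSi arrays lay close to each other. The means were 1.81 ± 0.09 in De-HA and 1.18 ± 0.02 in FeMnSi (SD, n = 3 each), a log2 fold change of 0.64 ± 0.09 (SE), interval 0.41 to 0.86, adjusted p = 0.0173. Within slide 1 the value was 0.64, with adjusted p = 0.0939 under the slide block. Tnfrsf19 probe 2 (A_55_P2012444), dim but well above background on all 6 arrays, had -3.37, -4.00 and -3.96 in De-HA, against -3.87, -3.91 and -4.17 in FeMnSi. Here De-HA 1 stood above the rest and the other arrays overlapped, with a log2 fold change of 0.20 ± 0.19 (SE) and adjusted p = 0.480.

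Rnf43 and Znrf3 are membrane-bound ubiquitin ligases that remove Frizzled receptors from the cell surface, and R-spondin proteins acting through Lgr receptors block them. Rnf43 (A_55_P2079619) had log2 signals of -0.22, 0.03 and -0.20 in De-HA, against -0.66, -0.80 and -0.82 in FeMnSi. The groups did not overlap, and FeMnSi 1 was the FeMnSi array nearest to De-HA. The means were -0.13 ± 0.14 in De-HA and -0.76 ± 0.09 in FeMnSi (SD, n = 3 each), a log2 fold change of 0.63 ± 0.11 (SE), interval 0.37 to 0.89, adjusted p = 0.0254. Within slide 1 it was 0.53, with adjusted p = 0.152 under the slide block.

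Znrf3 (A_55_P2145252) had log2 signals of -3.48, -3.99 and -3.90 in De-HA, against -4.06, -4.01 and -4.48 in FeMnSi. Its groups were apart only narrowly, since De-HA 2 and FeMnSi 2 nearly touched. The log2 fold change of 0.39 ± 0.18 (SE), interval -0.04 to 0.83, did not pass (adjusted p = 0.185), and the interval holds both no change and the fold change of Rnf43. Whether Rnf43 and Znrf3 differed in response was not tested.

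Nkd1 and Nkd2 are the naked cuticle proteins, which bind Dishevelled and restrain the pathway inside the cell. Nkd1 probe 1 (A_55_P2118694) had log2 signals of -3.56, -4.09 and -3.88 in De-HA, against -4.06, -4.55 and -4.31 in FeMnSi, with De-HA 2 just under FeMnSi 1. The log2 fold change was 0.46 ± 0.18 (SE), interval 0.04 to 0.89, and it did not pass after adjustment (adjusted p = 0.134). Nkd1 probe 2 (A_55_P1967736) was well above background on 1 array of each group and was not tested. Its signals of -5.55, -5.75 and -5.42 in De-HA and -5.27, -5.86 and -5.63 in FeMnSi overlapped.

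Nkd2 probe 1 (A_55_P2143279) had 2.26, 2.01 and 2.03 in De-HA, against 1.84, 2.19 and 1.81 in FeMnSi. FeMnSi 2 lay among the De-HA arrays, and the log2 fold change of 0.15 ± 0.14 (SE), interval -0.17 to 0.48, did not pass (adjusted p = 0.459). That interval leaves out a rise as large as that of Axin2 probe 1. Lgr5, the R-spondin receptor known as a stem cell marker and Wnt target in the gut, was well above background on no array. Its log2 signal was -6.95, -8.03 and -7.91 in De-HA, against -7.70, -8.10 and -7.83 in FeMnSi, all below the lowest signal called well above background on the same array. Nkd2 probe 2 (A_55_P2143282) and Tcf7 probe 2 (A_55_P2109633) were likewise well above background on no array. On these 3 undetected probes De-HA 1 read -7.02 to -6.79, higher than any other array (-8.12 to -7.70). The lowest signal called well above background was also highest on De-HA 1, at -4.84 against -5.90 to -5.50 elsewhere. De-HA 1 was the highest array for 7 of the 13 tested probes, among them the dim probes of Axin2, Tnfrsf19, Nkd1 and Znrf3, and the part of this array's floor in their values was not tested. It was not the highest array for Axin2 probe 1, Tnfrsf19 probe 1 or Rnf43.

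**Figure D2:**
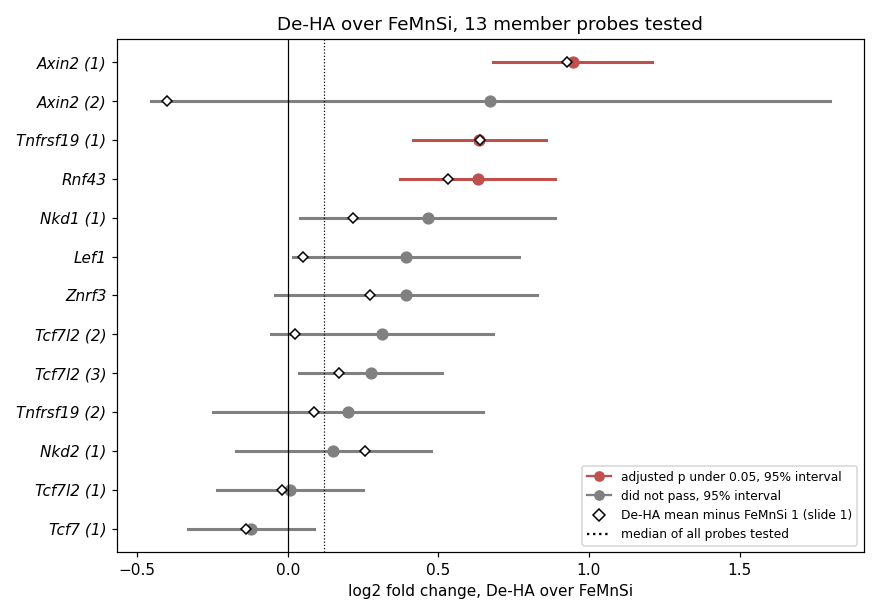
Log2 fold change of De-HA over FeMnSi for the 13 tested probes, with the 95% confidence interval as a bar and the value within slide 1 as an open diamond. Red marks the 3 that passed (Axin2 probe 1 at 0.95, Tnfrsf19 probe 1 at 0.64, Rnf43 at 0.63), grey those that did not, and the dotted line is the median of all probes tested (0.12). The diamond lies inside the bar for all 13 probes, and for Lef1 and Tcf7l2 probe 2 it is close to 0.

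The nuclear effectors are the DNA-binding partners through which beta-catenin acts, and some of them are targets of it too. Lef1, which is itself induced by Wnt signalling in several tissues, was measured by 1 probe (A_51_P420400), with -4.17, -4.13 and -4.02 in De-HA and -4.16, -4.72 and -4.62 in FeMnSi. FeMnSi 1 lay at the level of the De-HA arrays, and FeMnSi 2 and 3 were lower. The log2 fold change was 0.39 ± 0.16 (SE), interval 0.02 to 0.77, adjusted p = 0.145, but within slide 1 it was 0.05. Without FeMnSi 1, where the groups shared no slide, it was 0.56 with adjusted p = 0.0196.

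Tcf7, also known as TCF1, had -4.28, -4.22 and -4.16 in De-HA on probe 1 (A_52_P244702), against -4.08, -4.08 and -4.13 in FeMnSi. All De-HA arrays were lower, by a small margin. The log2 fold change of -0.12 ± 0.09 (SE), interval -0.33 to 0.09, did not pass (adjusted p = 0.361), and it was 0.13 after normexp background correction. Of all probes tested, 37.4% had groups that did not overlap (25.6% higher and 11.8% lower in De-HA), and of these 13 probes 5 were apart with De-HA higher and 1, this one, with De-HA lower.

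Tcf7l2, also known as TCF4, was measured by 3 probes that carry 3 different RefSeq transcripts of the gene. Probe 1 (A_55_P2260094) had 1.76, 1.59 and 1.57 in De-HA, against 1.66, 1.53 and 1.71 in FeMnSi. These values overlapped throughout, with a log2 fold change of 0.01 ± 0.10 (SE), interval -0.24 to 0.25, adjusted p = 0.966, and its sign was negative under 7 of 18 other settings. Probe 2 (A_55_P2030160) had -0.93, -1.25 and -1.16 in De-HA, against -1.14, -1.56 and -1.58 in FeMnSi. FeMnSi 1 fell among the De-HA arrays, the log2 fold change was 0.31 ± 0.16 (SE) with adjusted p = 0.205, and within slide 1 it was 0.02. Probe 3 (A_55_P2143724) had -2.41, -2.39 and -2.33 in De-HA, against -2.55, -2.79 and -2.62 in FeMnSi. Its groups were apart, with a log2 fold change of 0.28 ± 0.10 (SE), interval 0.04 to 0.51, and it missed the threshold (adjusted p = 0.122). The difference between these transcripts' probes was not tested.

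Over the 6 arrays, Axin2 probe 1 and Tnfrsf19 probe 1 had a Pearson r of 0.99, Axin2 probe 1 and Rnf43 0.99, and Tnfrsf19 probe 1 and Rnf43 0.98. These are descriptions, since the 3 probes were picked for passing the test between the groups on these same arrays. The arrays also fall in 2 groups and share their scaling. In all 3 probes De-HA 2 was the highest array. Axin2 probe 1 had r = 0.25 with Tnfrsf19 probe 2, r = 0.42 with the dim probe of its own gene and r = -0.79 with Tcf7 probe 1. Among 13151 named genes well above background on all arrays, the patterns most like Axin2 probe 1 were those of Npc1l1 (r = 0.997), a cholesterol transporter, Bace1 (r = 0.997), a beta-secretase, and Mxd4 (r = 0.997), a Max-binding repressor. Their log2 fold changes were 0.96 for Npc1l1 (adjusted p = 0.00961), 0.30 for Bace1 (adjusted p = 0.0783) and 0.65 for Mxd4 (adjusted p = 0.0164).

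The promoters of the 3 genes that rose are shown because these genes passed the test and are reported or standard targets of Lef and Tcf proteins. The sequences are RefSeq windows of 250 bases that end at the base before an annotated start, on the gene's strand, build GRCm38.p6, and 8 of the 10 genes have such windows, 15 in all. Znrf3 and Lgr5 were not matched. Each window was searched on both strands for the core that Lef and Tcf proteins bind, in 4 forms: CTTTG followed by any pair made of A and T. Capitals mark a match, and no windows shown hold overlapping matches.
Axin2, chr11:108920099-108920348, plus strand: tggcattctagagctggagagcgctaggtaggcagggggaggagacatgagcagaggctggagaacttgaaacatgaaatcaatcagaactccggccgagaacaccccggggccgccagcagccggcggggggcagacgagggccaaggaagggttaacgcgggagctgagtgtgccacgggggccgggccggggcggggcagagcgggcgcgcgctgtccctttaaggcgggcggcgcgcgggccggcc
Tnfrsf19 start 1, chr14:61046856-61047105, minus strand: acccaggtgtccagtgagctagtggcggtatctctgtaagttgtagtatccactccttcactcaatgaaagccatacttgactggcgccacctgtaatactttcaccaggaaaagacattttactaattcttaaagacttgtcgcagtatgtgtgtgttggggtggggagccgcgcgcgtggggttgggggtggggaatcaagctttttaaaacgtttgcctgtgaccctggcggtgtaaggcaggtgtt
Tnfrsf19 start 2, chr14:61037988-61038237, minus strand: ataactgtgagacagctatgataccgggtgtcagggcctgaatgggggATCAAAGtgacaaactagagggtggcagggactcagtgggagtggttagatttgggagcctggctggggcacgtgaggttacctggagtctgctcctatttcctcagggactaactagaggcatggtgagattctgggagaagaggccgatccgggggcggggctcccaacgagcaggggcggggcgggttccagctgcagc
Rnf43 start 1, chr11:87662837-87663086, plus strand: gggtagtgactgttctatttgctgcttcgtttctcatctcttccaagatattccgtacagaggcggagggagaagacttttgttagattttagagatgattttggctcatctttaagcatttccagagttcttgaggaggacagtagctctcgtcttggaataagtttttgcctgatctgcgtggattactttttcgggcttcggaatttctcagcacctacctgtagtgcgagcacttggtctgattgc
Rnf43 start 2, chr11:87699647-87699896, plus strand: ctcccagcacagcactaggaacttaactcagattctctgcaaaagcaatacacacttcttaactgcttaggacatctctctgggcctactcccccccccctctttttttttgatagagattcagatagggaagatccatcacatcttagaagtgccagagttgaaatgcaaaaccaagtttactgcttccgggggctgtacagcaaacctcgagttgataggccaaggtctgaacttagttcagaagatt

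Of the 15 windows 3 held a match, while 14.8% of the 32851 RefSeq windows of this length did. One is the second Tnfrsf19 start, where the reverse complement of CTTTGAT begins 202 bases upstream. The others are the fourth Lef1 start (chr3:131156044-131156293, plus strand), with CTTTGTA on the other strand 147 bases upstream, and the second Tcf7l2 start (chr19:55895071-55895320, plus strand), with CTTTGTT 14 bases upstream. Of the windows printed, those of Axin2, Rnf43 and the first Tnfrsf19 start hold none of these letters, which says nothing of sites elsewhere in the genes.

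Across the rest of the pathway, 84 of 105 genes in 8 lists were tested, 11 rose in De-HA and 1 fell. That is 14.3% against 7.65% of all named genes by the same rule (4.47% higher and 3.18% lower), and the median log2 fold change was 0.21 against 0.10 for all named genes. The lists of these genes were chosen with earlier results of these data known, so these values are descriptions. With slide as a block 2 of these genes rose and 1 fell, so that Wif1, Id2 and Fosl1 passed there. In that fit 0.644% of all named genes passed. Without FeMnSi 1, where the groups shared no slide, the count of pathway genes that passed was 30 (35.7%, against 25.7% of all named genes). Without any other single array it was 3 to 5 (3.57% to 5.95%, against 0.586% to 1.42%). After quantile normalization the median was 0.09 for the pathway genes and 0.00 for all named genes. By list, the medians there were 0.09 for ligands, -0.20 for secretion factors, 0.17 for receptors, 0.50 for R-spondins and Lgr receptors, 0.25 for secreted inhibitors, 0.11 for the relay, -0.05 for nuclear cofactors and 0.09 for other targets. Within slide 1 the median was 0.30 for R-spondins and Lgr receptors, 0.33 for secreted inhibitors and 0.09 for the relay. It was 0.11 there for ligands, 0.05 for secretion factors, 0.19 for receptors, 0.04 for nuclear cofactors and 0.18 for other targets. The median of all named genes within slide 1 was 0.05.

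Among the ligands 1 of 13 tested genes rose (list median 0.15). It was Wnt10b, a ligand known to favour bone formation, with -0.01, -0.05 and 0.20 in De-HA against -0.43, -0.70 and -0.60 in FeMnSi, a log2 fold change of 0.63 (adjusted p = 0.0319). Neither secretion factor passed. Porcn, which attaches the lipid of Wnt proteins, had a log2 fold change of 0.41 (adjusted p = 0.102), and Wls, which carries them to the surface, -0.13 (adjusted p = 0.343).

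Among receptors and coreceptors 3 of 13 tested genes rose (list median 0.26). Both coreceptors were among them. Lrp6 had 3.80, 3.75 and 3.67 in De-HA, against 3.25, 3.18 and 3.10 in FeMnSi, a log2 fold change of 0.56 (adjusted p = 0.0240), and its other tested probe gave 0.33. Lrp5, in which loss of function causes low bone mass, had 0.71, 0.81 and 0.67 in De-HA, against 0.35, 0.31 and 0.27 in FeMnSi, a log2 fold change of 0.42 (adjusted p = 0.0444). The Frizzled receptor Fzd9 had a log2 fold change of 0.79 (adjusted p = 0.0264). Every De-HA array was above every FeMnSi array for these 3 genes, which are named because they passed. The same held for 25.6% of all probes tested. Of the R-spondins and the other Lgr receptors 3 of 6 genes were tested and 1 rose. This was Lgr4, an R-spondin receptor, with -1.69, -1.54 and -1.67 in De-HA against -2.28, -2.68 and -2.41 in FeMnSi, a log2 fold change of 0.82 (adjusted p = 0.0191). The list median of 0.73 was the value of Rspo3, which did not pass (adjusted p = 0.0913). Rspo3 was well above background on 3 De-HA arrays and 2 FeMnSi arrays, and its value within slide 1 was 0.30.

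Of the secreted inhibitors 3 of 6 tested genes rose (list median 0.49). Wif1, which binds Wnt proteins outside the cell, had -1.80, -2.04 and -2.18 in De-HA, against -3.95, -4.13 and -4.03 in FeMnSi, a log2 fold change of 2.03 (adjusted p = 0.00162). Sfrp2, a soluble relative of the Frizzled receptors, had 0.63 (adjusted p = 0.0244). Dkk4, a Dickkopf protein that binds the coreceptors, had 0.65 (adjusted p = 0.0378) but was well above background on 2 De-HA arrays and 1 FeMnSi array. Of the 7 inhibitors not tested, Dkk1, Dkk2, Sfrp1, Sfrp4, Frzb and Sost, the last a product of mature osteocytes, were well above background on no array, and Notum was left out for outlier spots. In the cytosolic relay and the destruction complex 1 of 17 genes rose (list median 0.22), namely Tnks, the tankyrase that marks Axin proteins for destruction, by 0.48 (adjusted p = 0.0327).

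Among the nuclear cofactors 1 of 17 genes rose (list median 0.05). It was Tle2, a Groucho-type corepressor of Lef and Tcf proteins, with 2.96, 2.86 and 3.15 in De-HA against 2.23, 1.88 and 2.11 in FeMnSi, a log2 fold change of 0.91 (adjusted p = 0.0164). The transcript of beta-catenin itself, Ctnnb1, had a log2 fold change of -0.06 (adjusted p = 0.762), with 4.06, 4.07 and 4.17 in De-HA against 4.01, 4.37 and 4.08 in FeMnSi. Of 13 other reported target genes 1 rose and 1 fell (list median 0.12). Id2, an inhibitor of helix-loop-helix factors, had 0.10, 0.00 and 0.08 in De-HA, against -0.90, -0.99 and -0.95 in FeMnSi, a log2 fold change of 1.01 (adjusted p = 0.00418). Fosl1, an AP-1 subunit, fell to -3.79, -3.96 and -3.83 in De-HA, against -2.78, -2.67 and -2.82 in FeMnSi, a log2 fold change of -1.10 (adjusted p = 0.00419). The cell cycle genes Ccnd1 (0.47, adjusted p = 0.133) and Myc (0.10, adjusted p = 0.702), both reported targets, did not pass, and Sp5, a close target of beta-catenin in embryos, was well above background on no array.

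**Figure D3:**
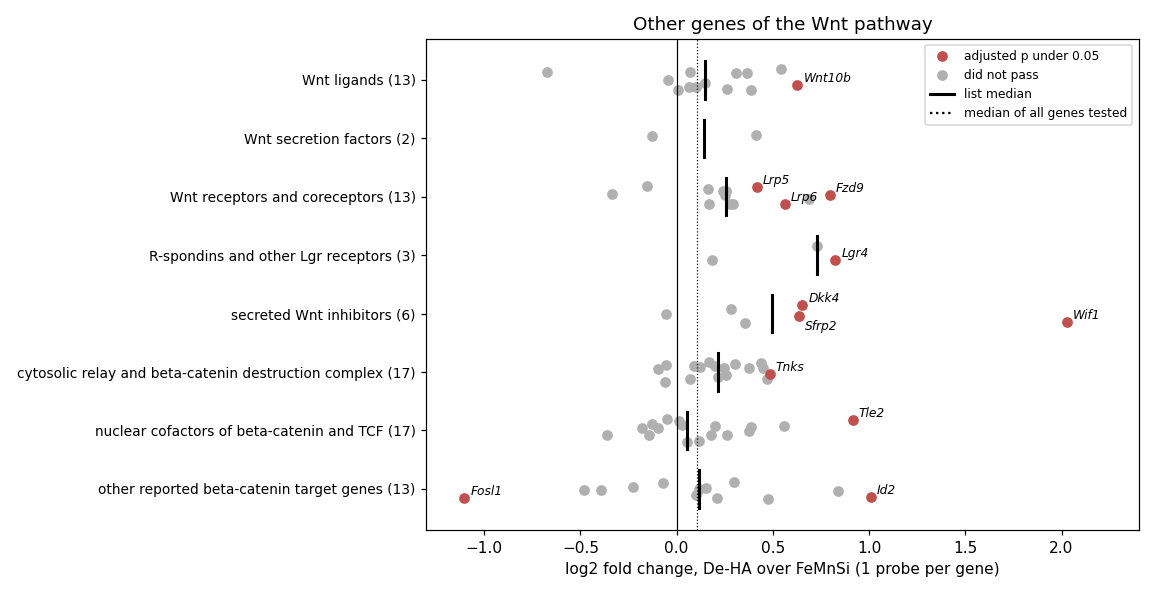
Log2 fold change of De-HA over FeMnSi for the 84 tested genes of 8 lists covering the rest of the pathway, 1 probe per gene, with the number tested in brackets. Red points passed the test and are named, bars are list medians, and the dotted line is the median of all named genes (0.10). Wif1 at 2.03 lies farthest right and Fosl1 at -1.10 farthest left.

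The rises of the 3 feedback genes kept their size under other processing, while their adjusted p crossed the threshold with the choice made. Axin2 probe 1 ranged from 0.86 to 1.02 on the log2 scale over 18 other settings and passed in 14, with adjusted p between 0.000897 and 0.137. Tnfrsf19 probe 1 ranged from 0.55 to 0.67 and passed in 9, with adjusted p between 0.00276 and 0.159. Rnf43 ranged from 0.53 to 0.68 and passed in 8, with adjusted p between 0.00533 and 0.212. These settings differ in scaling, background, filter, design or the arrays kept.

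**Figure D4:**
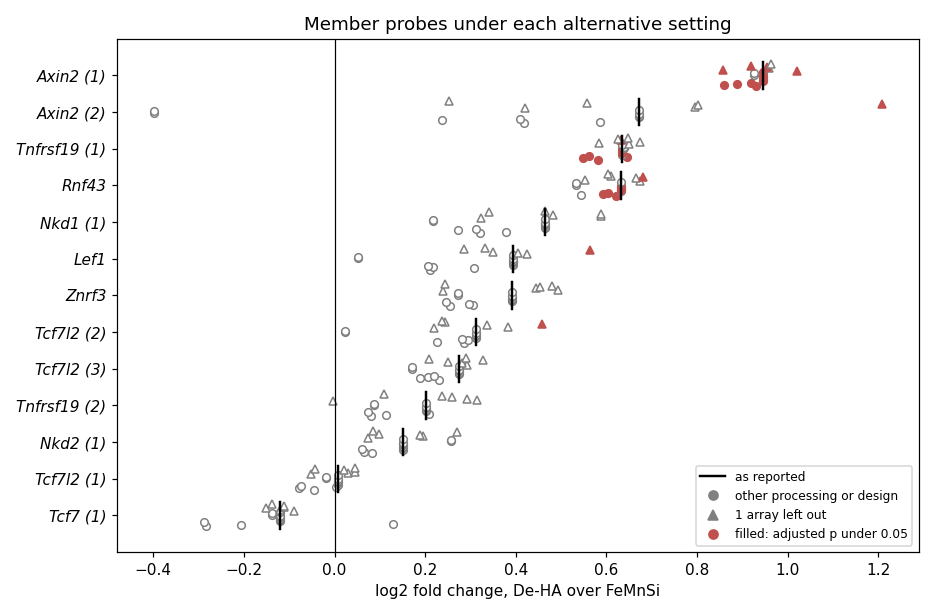
Log2 fold change of De-HA over FeMnSi for the 13 tested probes as reported (black bar) and under each alternative setting, with circles for another processing or design and triangles for 1 array left out. Filled red symbols passed the test. Axin2 probe 1 stays between 0.86 and 1.02, whereas its dim probe 2 spreads from -0.40 to 1.21.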

How the data were processed

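The authors' scanner files hold a linear intensity for every spot, which, per the submitters' processing notes, came from Agilent Feature Extraction 11.0.1.1 and, per the file headers, were background-subtracted. Each array holds 44397 spots, 1377 of them controls, and 39429 probes. The authors' deposited series matrix holds log2 values whose columns share a median of 5.77, and its processing is not given in the sources used here. From each log2 processed signal the 75th percentile over the array's non-control spots was subtracted, outlier spots were dropped, and spots of a probe were averaged. A probe counted as well above background where at least 0.5 of its spots were marked so. Probes with every spot an outlier on some array (205) were left out. The test of De-HA against FeMnSi was limma 3.58.1 (lmFit, eBayes without trend) in R 4.3.3, with Benjamini-Hochberg adjustment over all probes. The fit was tested on simulated data with independent noise, which held no effect of slide or of single arrays and so says nothing of those. Files were read with the data.table package (version 1.17.8), and promoters and figures were made in Python 3.11.15 with matplotlib 3.10.9. RefSeq symbols of assembly GRCm38.p6 named 27234 probes, and 12195 had none. In the lists a gene is its brightest tested probe. Slides were inferred from the scan dates in the file headers. Named genes are all 10 genes with every probe, the up to 4 genes that passed with the lowest p in each pathway list (the 2 lowest where none passed), the 3 most like Axin2 in pattern, and Sp5, Ccnd1, Myc and Ctnnb1, with the marker lists beside them. The genes and lists were chosen with earlier results of these data known. The number of arrays limits the precision.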

Additional observations from a re-analysis of the deposited data

How the results depend on the processing

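Of the probes of the 10 genes, 3 of 13 passed as reported. The share of all probes that passed in a setting is given in brackets, and was 6.91% as reported. The count was 2 with arrays centred on their medians (5.6%), 3 in quantile-normalized data (6.27%) and 3 in the authors' matrix (6.32%). It was also 3 with each of 5 other settings. These were well above background on all 6 arrays (12 probes of these genes tested, 11.1%), outlier spots kept (6.72%), 1 probe per gene (9 tested, 10.7%), an intensity trend (11.7%) and normexp (10.7%). The count was 1 with no filter on dim probes (0.76%), 1 with a replicate block (1.66%), and 0 to 6 with an array left out (0.49% to 25.4%). With slide as a block it was 0 (0.561%), and 3 had an unadjusted p under 0.05 in that limma fit. On slide 1 alone FeMnSi is a single array, assumed to vary like the De-HA arrays, so no count is given there. The count over all probes, 1948 as reported, was 3014 with normexp, 298 with no filter and 3294 with an intensity trend. It was 158 with slide as a block, 469 with the replicate block, and 138 to 7168 with an array left out. The highest of these came without FeMnSi 1. The count of pathway genes was 12 as reported (14.3%, against 7.65% of all named genes). It was 3 with no filter (3.57%, against 1.11%) and 3 with slide as a block (3.57%, against 0.644%). With the replicate block it was 5 (5.95%, against 1.9%), and with an array left out 3 to 30 (3.57% to 35.7%, against 0.586% to 25.7%).

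4 probes changed sign, with log2 fold changes as follows and none past the threshold there. Tcf7l2 probe 1 was -0.0448 under quantile normalization, -0.0789 when arrays were centred on medians, -0.0746 in the authors' matrix, -0.0180 with slide as a block or slide 1 alone, and -0.0519 to 0.0458 with an array left out. Tcf7 probe 1 was 0.13 with normexp, Axin2 probe 2 was -0.40 under the slide block or slide 1 alone, and Tnfrsf19 probe 2 was -0.0034 to 0.31 with an array left out. The cause was not tested. Without FeMnSi 1, Axin2 probe 2 (1.21, adjusted p = 0.0343), Lef1 (0.56, adjusted p = 0.0196) and Tcf7l2 probe 2 (0.46, adjusted p = 0.0436) also passed. In that fit the groups shared no slide, so group and slide cannot be told apart.

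Samples of the groups share replicate numbers, but the labels do not say that same-numbered samples were paired. Same-numbered arrays had correlations of 0.03, -0.08 and 0.14 in their deviations from the group means. Not every array correlated best with its own number. With 3 arrays per group these values cannot settle whether samples were paired, so the replicate block is given only as an alternative setting. Normexp was planned on mean signals, which the files used here do not carry, so median signals were used. Its fit on all spots was spoiled by 6 spots of FeMnSi 3 dimmer than their local background, so the version without those spots, chosen after seeing the data, stands in its place. Dim probes are limited by signal over background: of the 17 probes, 3 were well above background on no array and 12 on all 6.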
